A study of Drosophila melanogaster with 18 samples.

Results

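The octopamine and tyramine genes of the fly are 3 enzyme genes (Tdc1, Tdc2 and Tbh), 4 octopamine receptor genes (Oamb, Octbeta1R, Octbeta2R and Octbeta3R) and 2 tyramine receptor genes (Oct-TyrR and TyrR). They were taken by symbol, and all 9 were found among the 17972 genes of the Illumina table and among the 13969 genes of the Nanopore table. They were measured in whole adult flies (Drosophila melanogaster), in 3 genotypes with 3 libraries each on both Illumina and Nanopore. Flies labelled dec2P384R carried GR23E10-gal4 with UAS-dec2P384R. Flies labelled dec2WT carried GR23E10-gal4 with UAS-dec2WT, and the driver control carried GR23E10-gal4 alone, so that every group held the driver. Per the labels, the rearing temperature was 25 °C with light and darkness of 12 h each, collection was at zeitgeber time 3 (3 h into the light phase), and each extraction used about 70 flies. The labels give neither age nor sex.

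Octopamine and tyramine are monoamines that serve insects in much the way that noradrenaline serves vertebrates. A tyrosine decarboxylase removes the carboxyl group of tyrosine to make tyramine, and tyramine beta-hydroxylase adds a hydroxyl group to tyramine to make octopamine. Both amines act through G protein-coupled receptors on neurons, muscle, gut, renal tubules and the reproductive tract, and in Drosophila octopamine is known to promote wakefulness. The driver supplies Gal4, which activates a transgene placed behind UAS sites; in flies, GR23E10 is used to reach dorsal fan-shaped body neurons, a small part of a whole animal. DEC2 belongs to the helix-loop-helix transcription factors, and the mutated allele was found in human short sleepers. The transgenes themselves were not analysed here.

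None of the 9 genes passed the test in any comparison on either platform, and on Illumina each 95% interval excluded a 2-fold difference in either direction. In the main tests the lowest adjusted p-values were 0.258 for TyrR on Nanopore (edgeR) and 0.261 for Tbh on Illumina (limma). On Illumina reads edgeR gave Tbh 0.177 and DESeq2 gave it 0.229, the lowest of each. TyrR on Nanopore and Tbh on Illumina were lower in every dec2P384R library than in every driver control library. So were 9.02% of all genes tested on Nanopore and 7.83% on Illumina. Oamb was lower in every dec2P384R library than in all libraries of the other genotypes on Illumina. Of all genes tested, 7.83% were lower than in every driver control library and 6.16% than in every dec2WT library. The means of the 3 beta receptor genes were higher in dec2WT than in the other genotypes on Illumina and lower there on Nanopore. All comparisons with the driver control share its libraries, and genotype and any unlabelled difference in background or rearing cannot be told apart.

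Illumina libraries held between 18057117 and 28293197 reads on genes, and Nanopore libraries between 1922380 and 4659601 estimated counts. The lowest Nanopore totals were those of dec2P384R replicates 1 (1922380) and 3 (2391381), and every other Nanopore library held at least 3332335. Of 15 neuron markers, 15 were detected in every library, with summed Illumina levels of 121 to 138 FPKM in dec2P384R, 135 to 144 FPKM in dec2WT and 122 to 146 FPKM in the driver control. The 13 ovary and egg markers summed to 10.0 to 12.5 FPKM in dec2P384R, 12.5 to 16.9 FPKM in dec2WT and 12.3 to 17.98 FPKM in the driver control, and the eggshell genes Cp38 and Vm26Aa were at 0 in all Illumina libraries. The 11 accessory gland and testis markers summed to 3054 to 3968 FPKM in dec2P384R, 3218 to 3339 FPKM in dec2WT and 2664 to 3932 FPKM in the driver control. The 12 photoreceptor markers summed to 4876 to 6396.5 FPKM in dec2P384R, 4940 to 5147 FPKM in dec2WT and 5526.5 to 6127 FPKM in the driver control. Against the driver control, 1 of the 12 was lower at limma's adjusted p under 0.05 in dec2P384R, and 1 in dec2WT. Of the 12, 9 were lower in every dec2WT library than in every driver control library, beside 10.9% of all genes. The 10 muscle markers summed to 1518 to 2266, 1464 to 2056 and 1627 to 2450 FPKM in the same order. In RNA of whole animals, fewer cells of a type and less RNA per cell cannot be told apart.

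Levels between genes were compared in FPKM, which is scaled to gene length. Tdc1 stood highest at 7.31 ± 0.75 FPKM over the 9 Illumina libraries (SD), above 44.5% of the genes tested. The other members followed at 2.35 ± 0.23 FPKM for Octbeta2R, 2.26 ± 0.36 for Tbh, 2.16 ± 0.44 for TyrR, 1.79 ± 0.26 for Oamb, 1.23 ± 0.28 for Tdc2, 1.14 ± 0.19 for Octbeta1R, 1.05 ± 0.21 for Octbeta3R and 0.909 ± 0.19 for Oct-TyrR. These 8 levels lay above 9.27% (Oct-TyrR) to 22.3% (Octbeta2R) of the genes tested. Tdc1 was above Octbeta2R in 9 of 9 libraries by 3.11-fold, and Oamb was above Tdc2 in 9 of 9. Ranges over the 9 libraries overlapped for every pair of neighbours below Tdc1, Oamb and Tdc2 included. The order of the other neighbours varied between libraries: Octbeta2R exceeded Tbh in 5 of 9 libraries, Tbh exceeded TyrR in 5, TyrR exceeded Oamb in 7, Tdc2 exceeded Octbeta1R in 5, Octbeta1R exceeded Octbeta3R in 6 and Octbeta3R exceeded Oct-TyrR in 7. Nanopore CPM, scaled to library size and not to gene length, gave the reverse order for Tdc1 and Octbeta2R. Over the 9 Nanopore libraries Octbeta2R ran from 20.3 to 47.4 CPM (mean 33.2) and Tdc1 from 7.78 to 12.2 CPM (mean 10.3). The highest place of Tdc1 therefore holds for Illumina FPKM alone.

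**Figure D1:**
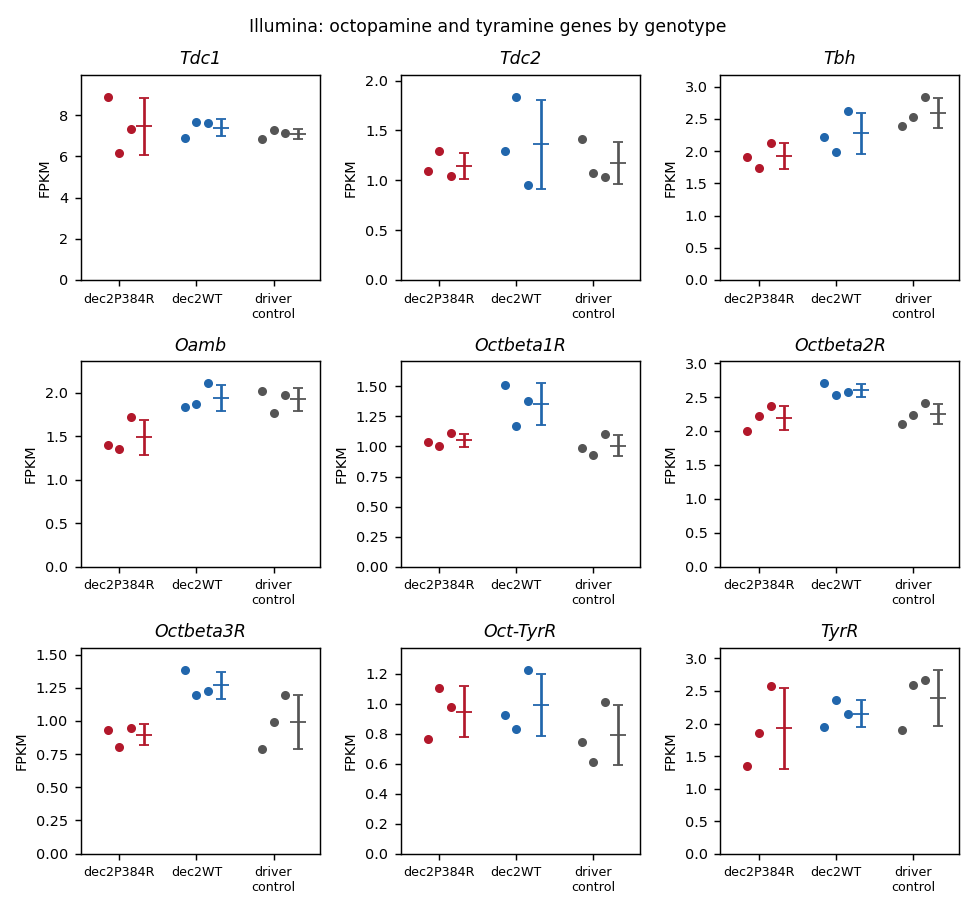
Illumina level of each gene in FPKM (vertical axes, from 0) in dec2P384R, dec2WT and driver control libraries. Points are single libraries, and the bar beside them is the mean with its SD (n = 3). Tbh and Oamb are lower in all 3 dec2P384R libraries than in all 3 driver control libraries, as are 7.83% of all genes tested. The 3 dec2WT points of Octbeta2R lie above all the others. Of all genes tested, 9.1% are higher in every dec2WT library than in every driver control library, and 6.16% than in every dec2P384R library.

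The tyrosine decarboxylase genes Tdc1 (FBgn0259977, 2R, 6677001 to 6680391) and Tdc2 (FBgn0050446, 2R, 6684745 to 6689974) are neighbours on the minus strand, 4353 nt apart. Tdc2 is the form of octopaminergic and tyraminergic neurons, and Tdc1 is known from tissue outside the nervous system. Tdc1 measured 8.90, 6.14 and 7.32 FPKM in dec2P384R (replicates 1 to 3), 6.91, 7.66 and 7.60 FPKM in dec2WT, and 6.83, 7.29 and 7.13 FPKM in the driver control. The dec2P384R libraries covered the whole range of the other genotypes and more, with a coefficient of variation of 18.6% against 3.30% in the driver control, while counting error alone gave 5.53% and 5.14%. The Tdc1 log2 fold change was 0.06 ± 0.13 (SE) in dec2P384R and 0.06 ± 0.13 in dec2WT relative to the driver control. An exon of the opposite-strand gene Rpp25 overlaps 246 nt of Tdc1, or 10.8% of its exons, and reads from that stretch cannot be assigned because the strand setting of the counting is not given in the sources used here. Tdc2 measured 1.09, 1.29 and 1.05 FPKM in dec2P384R, 1.29, 1.84 and 0.956 FPKM in dec2WT, and 1.41, 1.08 and 1.03 FPKM in the driver control. The 3 genotypes overlapped. Between 45 and 82 reads per library stood behind these values, so that counting error made up 12.5% to 13.8% of the level. On Nanopore Tdc2 had 3, 5.1 and 1 estimated counts in dec2P384R, 3.05, 3.06 and 4 in dec2WT, and 6, 5 and 4.13 in the driver control, too few to enter the Nanopore test.

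Tbh (FBgn0010329, X, 7995697 to 8027394, plus strand), the hydroxylase that commits tyramine to octopamine, measured 1.91, 1.73 and 2.13 FPKM in dec2P384R, 2.22, 1.99 and 2.62 FPKM in dec2WT, and 2.39, 2.54 and 2.85 FPKM in the driver control. Every dec2P384R library was below every driver control library, as for 7.83% of all genes tested, and dec2WT lay between and overlapped both. The mean FPKM in dec2P384R was 0.743 times that of the driver control. On the log2(FPKM + 0.5) scale the log2 fold change was −0.35 ± 0.14 (SE), or 0.784-fold, with a 95% interval of 0.638-fold to 0.965-fold. The adjusted p was 0.261 (limma, Benjamini-Hochberg), short of the threshold of 0.05. In edgeR on recovered reads, without that offset, the interval was 0.602-fold to 0.928-fold. Against dec2WT the log2 fold change was −0.19 ± 0.14 (adjusted p = 0.794 in limma). Nanopore gave 5.39, 8.71 and 5.12 CPM (counts scaled to library size) in dec2P384R, 6.89, 9.85 and 5.33 CPM in dec2WT, and 8.88, 6.15 and 7.51 CPM in the driver control. These Nanopore groups overlapped, and the log2 fold change of dec2P384R against the driver control was −0.18 ± 0.31, with an interval (0.557-fold to 1.39-fold) that holds the Illumina value. The Illumina ratio of Tbh to Tdc2 averaged 1.71 ± 0.35 in dec2P384R, 1.84 ± 0.83 in dec2WT and 2.27 ± 0.54 in the driver control (SD, n = 3), so that the groups overlapped in this ratio.

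Oamb (FBgn0024944, 3R, 20689018 to 20714577, minus strand) encodes an octopamine receptor that raises intracellular calcium and is known from mushroom bodies and oviduct. It measured 1.40, 1.35 and 1.72 FPKM in dec2P384R, 1.84, 1.87 and 2.11 FPKM in dec2WT, and 2.03, 1.77 and 1.97 FPKM in the driver control. The dec2P384R libraries were below all libraries of the other genotypes. Of all genes tested, 7.83% were lower in every dec2P384R library than in every driver control library, and 6.16% than in every dec2WT library. The Oamb log2 fold change was −0.29 ± 0.13 (SE) against the driver control (limma adjusted p = 0.367) and −0.30 ± 0.13 against dec2WT (limma adjusted p = 0.609). Between dec2WT and the driver control it was 0.01 ± 0.13. Nanopore means were 4.83 ± 1.6 CPM in dec2P384R, 5.96 ± 0.85 CPM in dec2WT and 6.29 ± 1.2 CPM in the driver control (SD, n = 3), with overlapping libraries and log2 fold changes of −0.29 ± 0.30 (dec2P384R) and −0.07 ± 0.28 (dec2WT) against the driver control (edgeR adjusted p = 0.781 and 0.963).

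The beta receptors raise cyclic AMP when octopamine binds. Octbeta3R (FBgn0250910, 3R, 12511570 to 12548229) and Octbeta2R (FBgn0038063, 3R, 12550625 to 12595725) lie 2395 nt apart on the minus strand, and Octbeta1R (FBgn0038980, 3R, 22497215 to 22520078) lies elsewhere on the plus strand. Octbeta2R, known for its part in ovulation and at the neuromuscular junction, measured 2.00, 2.22 and 2.36 FPKM in dec2P384R, 2.70, 2.52 and 2.57 FPKM in dec2WT, and 2.11, 2.23 and 2.41 FPKM in the driver control. Octbeta1R, a receptor that restrains growth of larval motor terminals, measured 1.04, 1.00 and 1.11 FPKM in dec2P384R, 1.51, 1.17 and 1.38 FPKM in dec2WT, and 0.989, 0.931 and 1.10 FPKM in the driver control. For both genes the 3 dec2WT libraries were above all 6 others, which overlapped. Of all genes tested, 9.1% were higher in every dec2WT library than in every driver control library. The share higher in every dec2WT library than in every dec2P384R library was 6.16%, and the share with both was not computed. Octbeta3R, known from the steroid-producing gland of larvae, measured 0.935, 0.807 and 0.947 FPKM in dec2P384R, 1.38, 1.19 and 1.23 FPKM in dec2WT, and 0.785, 0.992 and 1.20 FPKM in the driver control. Its dec2WT libraries were above those of dec2P384R and met the highest driver control library.

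On Illumina, log2 fold changes of dec2WT against the driver control were 0.29 ± 0.14 (SE) for Octbeta1R, 0.17 ± 0.12 for Octbeta2R and 0.25 ± 0.16 for Octbeta3R, and limma's adjusted p was 0.508, 0.723 and 0.669. In dec2P384R against dec2WT they were −0.25 ± 0.14, −0.20 ± 0.12 and −0.34 ± 0.16 (adjusted p = 0.723, 0.729 and 0.623 in limma). In dec2P384R against the driver control they were 0.04 ± 0.14, −0.03 ± 0.12 and −0.09 ± 0.16. On Nanopore dec2WT had the lowest mean of the 3 genotypes for each beta receptor gene, where on Illumina it had the highest. There Octbeta2R measured 36.7, 47.4 and 37.1 CPM in dec2P384R, 23.1, 20.3 and 32.6 CPM in dec2WT, and 36.5, 29.3 and 36.2 CPM in the driver control, so that all dec2P384R libraries were above all libraries of the other genotypes. Of all genes tested on Nanopore, 7.89% were higher in every dec2P384R library than in every driver control library, and 5.76% than in every dec2WT library. Octbeta1R averaged 10.3 ± 2.0 CPM in dec2P384R, 6.04 ± 2.3 CPM in dec2WT and 9.35 ± 2.4 CPM in the driver control, and Octbeta3R averaged 5.99 ± 1.3 CPM in dec2P384R, 4.71 ± 0.30 CPM in dec2WT and 6.43 ± 0.82 CPM in the driver control (SD, n = 3 each).

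Nanopore log2 fold changes of dec2WT against the driver control were −0.67 ± 0.30 (SE) for Octbeta1R, −0.42 ± 0.19 for Octbeta2R and −0.42 ± 0.25 for Octbeta3R, with edgeR adjusted p of 0.478, 0.48 and 0.637. Those of dec2P384R against dec2WT were 0.85 ± 0.31, 0.69 ± 0.20 and 0.32 ± 0.27, with edgeR adjusted p of 0.56, 0.38 and 0.861. The 95% intervals of dec2P384R against dec2WT ran from 1.20-fold to 2.17-fold for Octbeta2R on Nanopore and from 0.726-fold to 1.04-fold on Illumina, and so did not meet. Those of Octbeta1R did not meet either (1.13-fold to 2.87-fold on Nanopore and 0.673-fold to 1.05-fold on Illumina). Those of Octbeta3R overlapped (0.840-fold to 1.87-fold and 0.621-fold to 1.00-fold). These Illumina intervals are from limma on log2(FPKM + 0.5), and the Nanopore intervals are from edgeR on counts. In edgeR on Illumina reads the intervals were 0.713-fold to 0.998-fold for Octbeta2R, 0.621-fold to 0.966-fold for Octbeta1R and 0.551-fold to 0.907-fold for Octbeta3R. No DESeq2 intervals were computed, so whether they would meet is not known. The platforms were normalized separately, and the difference between them was not tested. Summed neuron markers on Nanopore were 1040 to 1135 CPM in dec2P384R, 805 to 1147 CPM in dec2WT and 940 to 1231 CPM in the driver control; their median log2 fold change was 0.37 on Nanopore and −0.13 on Illumina in dec2P384R against dec2WT, and −0.24 on Nanopore and 0.08 on Illumina in dec2WT against the driver control, with 0 of 15 past the threshold in each. Their part in the beta receptor values was not tested.

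**Figure D2:**
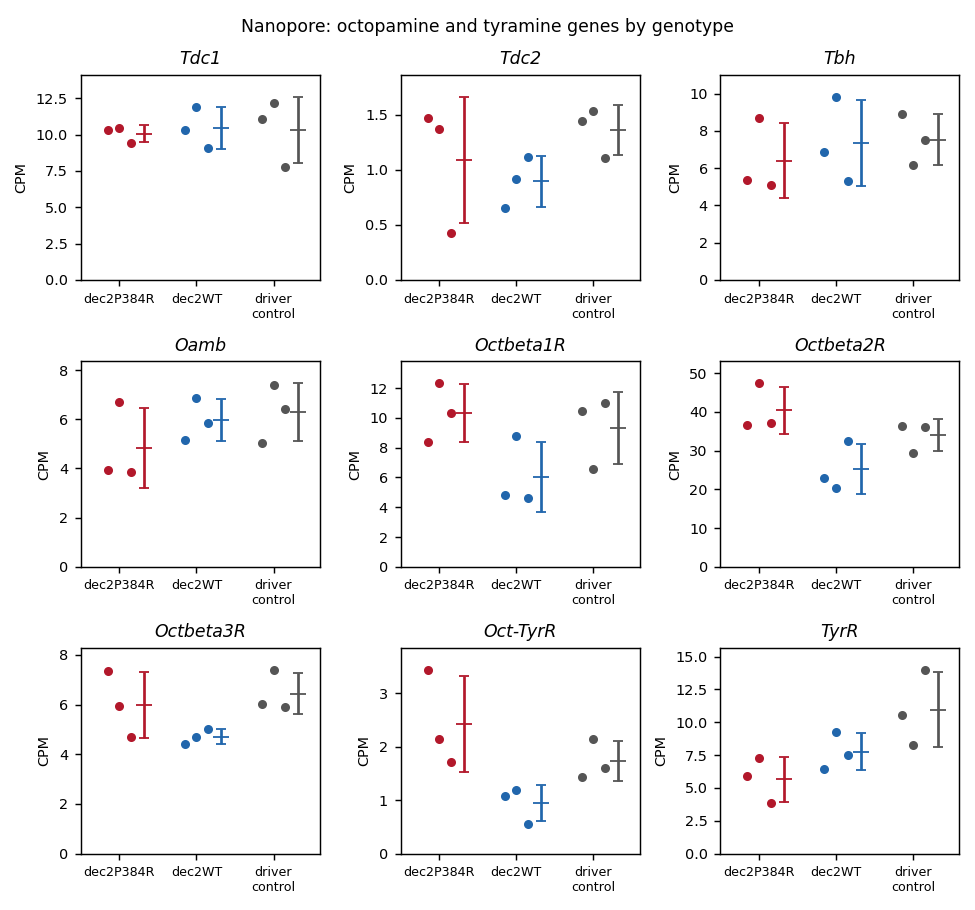
Nanopore level of each gene in CPM (vertical axes, from 0) by genotype. Points are single libraries, and the bar beside them is the mean with its SD (n = 3). Octbeta2R is highest in the 3 dec2P384R libraries, at 36.7 to 47.4 CPM. Of all genes tested, 7.89% are higher in every dec2P384R library than in every driver control library, and 5.76% than in every dec2WT library. TyrR is lower in all 3 dec2P384R libraries than in all 3 driver control libraries, as are 9.02% of all genes tested.

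Oct-TyrR (FBgn0004514, 3L, 22035003 to 22065279, plus strand) encodes a receptor that prefers tyramine and lowers cyclic AMP. It measured 0.763, 1.10 and 0.974 FPKM in dec2P384R, 0.926, 0.828 and 1.22 FPKM in dec2WT, and 0.745, 0.614 and 1.01 FPKM in the driver control. The genotypes overlapped, and log2 fold changes against the driver control were 0.17 ± 0.18 (SE) in dec2P384R and 0.21 ± 0.18 in dec2WT (limma adjusted p = 0.739 and 0.815). On Nanopore it had 7, 8 and 4 estimated counts in dec2P384R, 5, 4 and 2 in dec2WT, and 6, 7 and 6 in the driver control, and did not enter the test. As CPM these were 3.43, 2.15 and 1.71 in dec2P384R, 1.08, 1.19 and 0.557 in dec2WT, and 1.44, 2.15 and 1.61 in the driver control, so that the dec2WT libraries were below the others. Of the genes tested on Nanopore, 8.12% were lower in every dec2WT library than in every driver control library, and 5.76% than in every dec2P384R library. TyrR (FBgn0038542, 3R, 17750129 to 17763188, minus strand) encodes a receptor specific to tyramine that acts in stellate cells of the renal tubules. It measured 1.34, 1.86 and 2.57 FPKM in dec2P384R, 1.94, 2.36 and 2.15 FPKM in dec2WT, and 1.90, 2.60 and 2.68 FPKM in the driver control. Replicate 1 was the lowest library of each of these groups, and the groups overlapped.

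On Nanopore TyrR measured 5.88, 7.26 and 3.84 CPM in dec2P384R, 6.46, 9.25 and 7.52 CPM in dec2WT, and 10.6, 8.30 and 14.0 CPM in the driver control. All dec2P384R libraries were below all driver control libraries, as for 9.02% of all genes tested on Nanopore. The log2 fold change was −0.90 ± 0.29 (SE) in dec2P384R (edgeR adjusted p = 0.258) and −0.51 ± 0.26 in dec2WT (adjusted p = 0.56) against the driver control. On Illumina the same comparisons gave −0.27 ± 0.19 and −0.12 ± 0.19 (limma adjusted p = 0.584 and 0.939). Behind the dec2P384R values on Nanopore stood 12, 27 and 9 estimated counts, against 44, 27 and 52 in the driver control. On Nanopore the 4 stellate cell markers summed to 126 to 154 CPM in dec2P384R, 148 to 173 CPM in dec2WT and 135 to 147 CPM in the driver control. On Illumina they summed to 57.5 to 63.6 FPKM in dec2P384R, 63.1 to 68.9 FPKM in dec2WT and 68.0 to 76.5 FPKM in the driver control. Their part in the TyrR values was not tested.

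**Figure D3:**
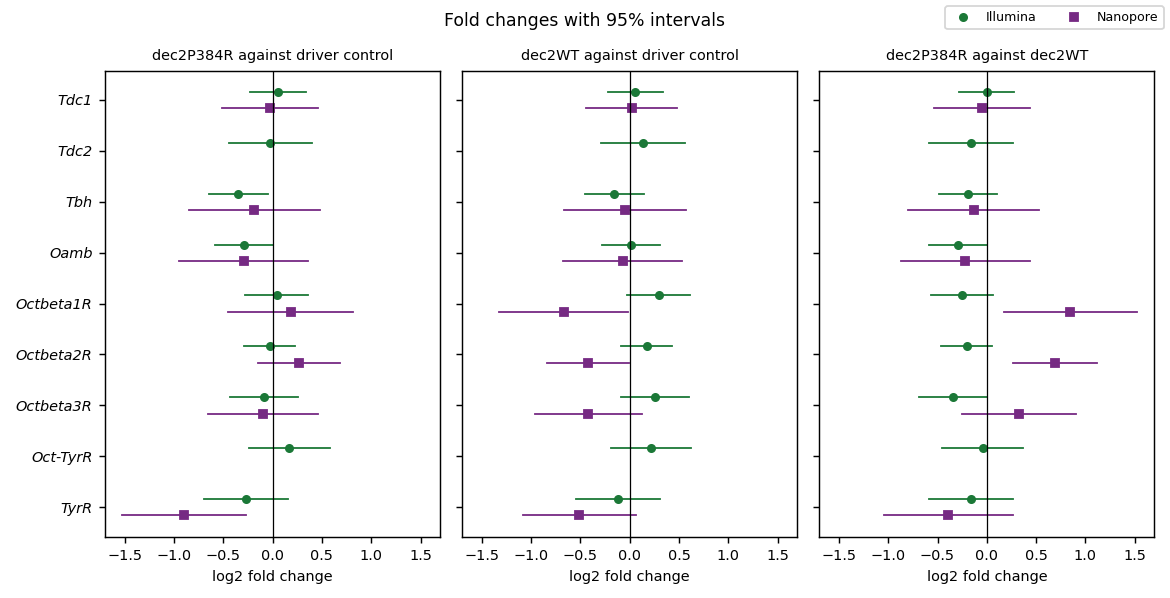
Log2 fold change (horizontal axis) of each gene in the 3 comparisons, with its 95% interval, on Illumina (circles) and Nanopore (squares). Tdc2 and Oct-TyrR have no Nanopore value because they did not pass its count filter; the Illumina and Nanopore points of the beta receptors lie on opposite sides of 0 in dec2WT against the driver control and in dec2P384R against dec2WT.

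With the mutant transgene set against the driver alone (dec2P384R against the driver control), 0 of 9 members passed limma's adjusted p under 0.05 on Illumina, beside 2.8% of the 13418 genes tested. At an unadjusted p under 0.05 there was 1 member (Tbh) by limma, beside 14.1% of genes, and 2 each (Tbh and Oamb) by edgeR, beside 14.4% of genes, and DESeq2, beside 11.5%, on recovered reads, which also gave 0 past adjustment. The libraries of the groups did not overlap for 2 members, both lower in dec2P384R, where 7.83% of genes were parted in that direction and 8.16% in the other. The members' median log2 fold change was −0.03, against 0.00 for all genes. On Nanopore 0 of 7 members tested passed in edgeR, beside 0.474% of 11393 genes, and 1 (TyrR) had an unadjusted p under 0.05, in edgeR, beside 11% of genes, and in DESeq2, beside 6.52%. The groups were parted for 2 of the 7 there, Octbeta2R (higher) and TyrR (lower), where 7.89% of genes were parted upwards and 9.02% downwards.

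With the wild-type transgene set against the driver alone (dec2WT against the driver control), 0 of 9 members passed on Illumina, beside 2.61% of genes. At an unadjusted p under 0.05 there were 0 by limma, beside 11.3% of genes, 2 (Octbeta1R and Octbeta3R) by edgeR, beside 11.4%, and 1 (Octbeta1R) by DESeq2, beside 9.14%, with 0 past adjustment by either. The groups were parted for Octbeta1R and Octbeta2R, both higher in dec2WT, where 9.1% of genes were parted in that direction and 10.9% in the other. The members' median log2 fold change was 0.14 on Illumina (0.00 for all genes) and −0.42 over the 7 tested on Nanopore (0.00 for all genes). On Nanopore 0 passed in edgeR, beside 0.799% of genes; unadjusted p was under 0.05 for 2 (Octbeta1R and Octbeta2R) in edgeR, beside 10.1% of genes, and for 0 in DESeq2, beside 6.26%. Only Octbeta3R was parted there among the 7, lower in dec2WT, where 8.12% of genes were, with 7.31% higher.

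With the mutation set against the wild-type transgene (dec2P384R against dec2WT), 0 of 9 members passed on Illumina, beside 0.783% of genes. Unadjusted p was under 0.05 for 1 (Oamb) by limma, beside 8.07% of genes, for 4 (Oamb and the 3 beta receptors) by edgeR, beside 8.2%, and for 2 (Oamb and Octbeta3R) by DESeq2, beside 6.42%, and 0 passed adjustment by either tool. All 4 octopamine receptor genes were lower in each dec2P384R library than in each dec2WT library, where 6.16% of genes were parted in that direction and 7.12% in the other. All 9 members had a negative log2 fold change, with a median of −0.19 against −0.00 for all genes, but that of Tdc1 was within 0.01 of 0 and turned positive in edgeR and DESeq2. Of the 15 neuron markers 13 were negative there too, with a median of −0.13, and their part in the members' values was not tested. On Nanopore 0 of 7 passed in edgeR, beside 0.132% of genes, and Octbeta1R and Octbeta2R had unadjusted p under 0.05 in edgeR, beside 7.19% of genes, and in DESeq2, beside 3.93%. The members' Nanopore median was −0.05, and Octbeta2R was the 1 member parted among the 7, higher in dec2P384R, where 5.76% of genes were, with 5.57% lower.

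The intervals state what the libraries could resolve. Across the 27 Illumina intervals of 9 members and 3 comparisons the bounds ran from 0.616-fold to 1.54-fold on the log2(FPKM + 0.5) scale, which understates changes of genes near 1 FPKM. In edgeR on recovered reads, which has no such offset, they ran from 0.551-fold to 1.81-fold, so that 27 of 27 excluded a 2-fold difference. On Nanopore 15 of 21 intervals did, and the bounds ran from 0.345-fold to 2.87-fold. These Nanopore intervals rest on edgeR standard errors. DESeq2 gave larger ones for Tdc1, Tbh, Oamb and the beta receptors in dec2P384R against the driver control (for Oamb 0.43 against 0.30). For TyrR in that comparison unadjusted p was 0.019 in DESeq2 and 0.0086 in edgeR, at log2 fold changes of −0.92 and −0.90. For Octbeta3R in dec2WT against the driver control unadjusted p was 0.29 in DESeq2 and 0.12 in edgeR, both at −0.42. The count of 15 therefore holds for edgeR alone. The authors' deposited Nanopore tables gave adjusted p of at least 0.626 for the 9 members, the smallest for TyrR in dec2P384R against the driver control. None of the 9 was listed in the authors' deposited Illumina tables, whose 93 to 286 genes have a log2 fold change of at least 1.00 in size.

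A list of 39 other genes of the amine pathway and its signalling was measured alongside, and 0 passed the threshold in any comparison on either platform in limma (Illumina), edgeR or DESeq2, with 38 tested on each platform. At an unadjusted p under 0.05 there were 4 in dec2P384R against the driver control, 1 in dec2WT against the driver control and 1 in dec2P384R against dec2WT on Illumina by limma, and 4, 2 and 4 on Nanopore by edgeR. The shares of all genes in the same order were 14.1%, 11.3% and 8.07% on Illumina and 11%, 10.1% and 7.19% on Nanopore. The medians of their log2 fold changes in the 3 comparisons were −0.04, 0.01 and −0.04 on Illumina and −0.11, −0.06 and 0.03 on Nanopore. The remaining receptor genes were low: TyrRII averaged 0.663 FPKM in dec2P384R, 0.632 FPKM in dec2WT and 0.799 FPKM in the driver control, and Octalpha2R averaged 0.618 FPKM in dec2P384R, 0.648 FPKM in dec2WT and 0.736 FPKM in the driver control. Vmat, the vesicular transporter that loads monoamines into synaptic vesicles, averaged 5.95 FPKM in dec2P384R, 7.25 FPKM in dec2WT and 7.95 FPKM in the driver control. Its log2 fold change in dec2P384R against the driver control was −0.39 ± 0.13 (SE) on Illumina (limma adjusted p = 0.178) and 0.09 ± 0.16 on Nanopore (edgeR adjusted p = 0.881). AANATL2, an N-acetyltransferase of monoamines, averaged 9.89 FPKM in dec2P384R, 9.45 FPKM in dec2WT and 6.10 FPKM in the driver control; its log2 fold change in dec2P384R was 0.63 ± 0.24 on Illumina (limma adjusted p = 0.261) and 0.78 ± 0.28 on Nanopore (edgeR adjusted p = 0.331). Vmat and AANATL2 were chosen after their values were seen.

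**Figure D4:**
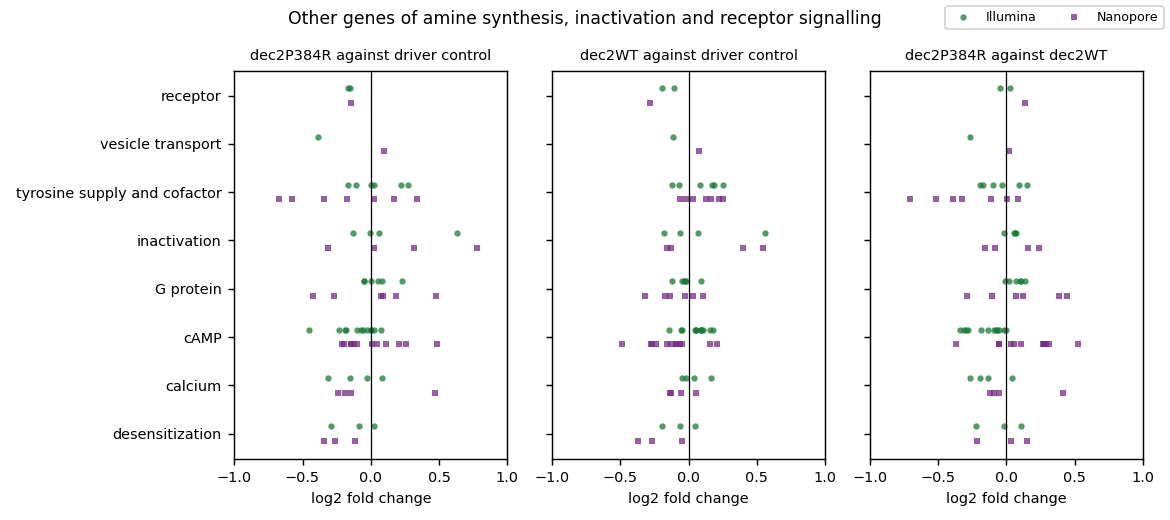
Log2 fold change (horizontal axis) of the other pathway genes, 1 point per gene and platform, grouped by role in rows, in the 3 comparisons. Illumina points are circles and Nanopore points squares; 0 of the 38 genes tested on each platform passed the threshold, and the points lie on both sides of 0 in each comparison.

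Over the 9 Illumina libraries, the gene whose log2(FPKM + 0.5) ran most like that of a member was sought among 5498 named genes of at least 2 FPKM, as a description. It was Hel25E for Tbh (Pearson r = 0.97, Spearman rho = 0.97), Irp-1A for TyrR (r = 0.97, rho = 0.88), Skp2 for Oamb (r = 0.94, rho = 0.95), Ada2a for Octbeta3R (r = 0.93, rho = 0.87) and Smvt for Octbeta2R (r = 0.92, rho = 0.92). For Tdc1 it was Mmp1 (r = 0.93, rho = 0.67), where r was 0.31 without the 2 libraries farthest from the median of Tdc1. For the other members it was Cyp310a1 for Octbeta1R, RhoGAP16F for Oct-TyrR and tbrd-3 for Tdc2 (r = 0.90, 0.89 and 0.85). In the Nanopore libraries the same 9 pairs had r between −0.46 (Octbeta1R) and 0.67 (Oct-TyrR). Each Illumina r was the highest of 5498 over 9 libraries, so a high value follows from the choice, and rho used the same libraries. Whether any pair is linked was not tested.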

How the data were processed

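RNA from whole flies was sequenced as polyA-enriched Illumina libraries (paired reads of 150 nt) and as Nanopore direct cDNA libraries, per the labels. Salmon, minimap2, DESeq2, HISAT2 and featureCounts (1.5.0-p3) appear, with no role stated, among tools in the submitters' processing notes. No source used here names the genome build. Of 17626 gene identifiers shared with Ensembl BDGP6.54, 99.3% had identical coordinates, the 9 members among them.

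The Illumina table held FPKM values as deposited by the authors. Multiplied by gene length and by 1 constant per library, taken from the raw counts that the authors deposited in their comparison tables, 100% of values came out whole within 1e-06. The Nanopore table held estimated counts as deposited, of which 55.1% were not whole; they were rounded for testing. The authors' own tables give log2 fold changes and adjusted p-values, as deposited. Another 36 columns of library values were not used.

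Illumina values were tested with limma 3.58.1 (trended) on log2(FPKM + 0.5) over 13418 genes (0.5 FPKM or more in 3 or more libraries), and Nanopore counts with edgeR 4.0.16 (TMM, filterByExpr, quasi-likelihood) over 11393 genes. Both were checked on simulated data. R was version 4.3.3 and DESeq2 version 1.42.0. All 9 libraries of a platform entered 1 model; two-sided p-values were adjusted by Benjamini-Hochberg over every gene tested. Standard errors of Nanopore folds come from the F statistic. The labels call the libraries independent biological replicates. Alternatives were other pseudocounts, filters, scalings, tools, library sets and a replicate block. Same-numbered Illumina libraries of dec2P384R and the driver control deviated weakly alike (correlation 0.12 to 0.26, from the data and not the labels). The same comparison on Nanopore gave −0.12 to 0.08. In each of the other comparisons on either platform the lowest same-numbered correlation was at most 0.04, so a pairing by number is not established.

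Members and lists were chosen with earlier results of these data known. The rule for named genes took the 9 members, pathway genes past the threshold (there were 0), and the 1 gene most correlated with each member; TyrRII and Octalpha2R were named outside it as the list's other receptors, and Vmat and AANATL2 after their values were seen. 1 Illumina column spells the mutation with its digits exchanged and was read as dec2P384R replicate 2.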

Additional observations from a re-analysis of the deposited data

How the results depend on the processing

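The count of members past the threshold was 0 in all 6 comparisons under every alternative run, including each omission of a library and the replicate block (0 in each). The 48 log2 fold changes had 753 alternative values, of which 717 kept their direction, 36 changed sign and 0 passed the threshold; 29 of the 48 never changed sign. Under quantile normalization the log2 fold change was −0.0081 for Octbeta1R (dec2P384R against the driver control), −0.028 for Oamb (dec2WT against the driver control) and 0.011 for Tdc1 (dec2P384R against dec2WT), all on Illumina. That of Tdc1 in dec2P384R against dec2WT was 0.016 in edgeR and 0.017 in DESeq2 on recovered reads. Leaving out 1 library at a time turned the sign of the values that follow. In dec2P384R against the driver control the log2 fold changes then ran from −0.073 to 0.18 for Tdc1, −0.087 to 0.078 for Tdc2, −0.076 to 0.021 for Octbeta2R and −0.19 to 0.011 for Octbeta3R on Illumina, and from −0.19 to 0.10 for Tdc1, −0.011 to 0.33 for Octbeta1R and −0.24 to 0.028 for Octbeta3R on Nanopore. In dec2WT against the driver control they ran from −0.043 to 0.30 for Tdc2 and −0.040 to 0.039 for Oamb on Illumina, and from −0.14 to 0.15 for Tdc1, −0.30 to 0.13 for Tbh and −0.22 to 0.051 for Oamb on Nanopore. In dec2P384R against dec2WT they ran from −0.13 to 0.12 for Tdc1, −0.32 to 0.020 for Tdc2, −0.12 to 0.064 for Oct-TyrR and −0.34 to 0.026 for TyrR on Illumina, and from −0.13 to 0.048 for Tdc1 and −0.47 to 0.11 for Tbh on Nanopore. The cause was not tested. Over all genes, DESeq2 called 186 against 105 by limma in dec2P384R against dec2WT on Illumina, and on Nanopore 103 against 54 by edgeR in dec2P384R against the driver control and 41 against 15 in dec2P384R against dec2WT. Tdc2 and Oct-TyrR, with 1 to 8 Nanopore counts per library, stayed out of edgeR's test; DESeq2 tested both and called neither.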
